A study of Mus musculus with 5 samples.

Results

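Stem-like CD8 T cells of mouse B16-F10 tumours were chosen by the molecules (unique molecular identifiers, UMIs) counted in each barcode of single-cell RNA libraries. A barcode counted as a gated CD8 T cell when at most 10% of its UMIs came from mitochondrial genes, it held at least 1 UMI of Cd3e, Cd3d and Cd3g together and at least 2 of Cd8a and Cd8b1, and it held none of Cd4, of the myeloid and B-cell genes Csf1r, C1qa and Cd79a, or of the Ly49 receptor genes Klra1 and Klra6. It also had to hold fewer than 2 UMIs of the proliferation genes Mki67 and Top2a and fewer than 3 of the granzyme genes Gzmc to Gzmf. A gated cell was stem-like when Tcf7, Lef1 and S1pr1 together gave at least 2 UMIs. The gate found 1735 stem-like cells, which were 25.4% of 6825 gated CD8 T cells and 4.68% of 37074 cells in all. The other 5090 gated CD8 T cells, with 0 or 1 UMI of the 3 genes, are the population they are compared with.

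Mice carried subcutaneous tumours grown from 500000 B16-F10 cells, a mouse melanoma line, and tumours were taken on day 11. Live CD45+ cells, which are blood-derived cells, were sorted from digested tumours, and about 16000 cells per library were loaded on the droplet 5′ kit of 10x Genomics. The 5 treatments were a protein that fuses anti-PD1 to IL15, anti-PD1 given together with an IL15 superagonist, the IL15 superagonist alone, anti-PD1 alone, and PBS as the vehicle, here called fusion, combination, IL15 superagonist, anti-PD1 and PBS. Each treatment has 1 library, so no difference between treatments could be tested. The title of the combination sample names the superagonist while its treatment tag names IL15, dose and schedule are not given, the treatment note places dosing after the tumour was resected, and the labels do not say how many mice went into a library.

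Stem-like or memory-type CD8 T cells keep the transcription factors TCF-1 (Tcf7) and LEF-1 (Lef1), divide rarely and can give rise to cytotoxic progeny. S1pr1 encodes the sphingosine-1-phosphate receptor by which T cells leave tissue for lymph and blood, and the chemokine receptor Ccr7 guides them into lymph nodes. In tumours and in chronic infection, TCF-1-positive CD8 T cells that also carry PD-1 (Pdcd1) are known as the cells that respond to PD-1 blockade. IL-15 acts through the receptor chains CD122 (Il2rb) and the common gamma chain (Il2rg) and sustains memory CD8 T cells and NK cells. The genes of the gate lie on several chromosomes of GRCm38, with Tcf7 at chr11:52252371-52283014, Lef1 at chr3:131110471-131224356 and S1pr1 at chr3:115710433-115715072.

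Stem-like cells held a median of 5120 UMIs in the fusion, 4220 in the combination, 4062 in the IL15 superagonist, 3905 in the anti-PD1 and 3394 in the PBS library, against 5602, 4816, 4525, 5173 and 4723 UMIs in the other gated cells of the same libraries. The shallowest barcode of a library held 1751 to 2671 UMIs. Any pair of libraries shared 61 to 104 barcode sequences, and 1 barcode was stem-like in both members of a pair over all 10 pairs. The PBS library stood apart: its stem-like cells held 0.399 Trbv UMIs per UMI of the constant segments Trbc1 and Trbc2, against 1.57 to 4.55 in the other 4 libraries. Comparisons with PBS are therefore mostly given beside comparisons that leave it out, with exceptions among single genes. All intervals below are exact 95% intervals that cover counting error only.

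The label was checked with Dapl1, the marker that the gate did not use. Dapl1 was detected in 9.43% of stem-like cells in the fusion, 16.8% in the combination, 30.2% in the IL15 superagonist, 24.8% in the anti-PD1 and 28.2% in the PBS library. In the other gated cells its share was 4.97% in the fusion, 2.48% in the combination, 4.20% in the IL15 superagonist, 4.20% in the anti-PD1 and 1.04% in the PBS library. The exact 95% intervals of both populations overlapped in fusion (5.38 to 15.1 against 3.88 to 6.25), as they did there at 2000 UMIs per cell (4.403%, 1.79 to 8.86, against 2.12%, 1.42 to 3.03), so Dapl1 sets the fusion stem-like cells apart less clearly than those of the other 4 libraries, whose intervals did not overlap. Its share was 0% to 0.0465% in macrophage barcodes, which should lack it. The macrophage barcodes had median depths of 5615 to 7814.5 UMIs, which is deeper than the stem-like cells. A sum of at least 2 for Tcf7, Lef1 and S1pr1 occurred in 0% to 1.13% of macrophage barcodes. The 5 CD8 T-cell markers (Cd8a, Cd8b1, Cd3e, Cd3d, Cd3g) summed to 3169 to 5392 UMIs per 1000000 UMIs (CPM) in stem-like cells over the libraries and 4377 to 6357 CPM in other gated cells. Of the markers of other cells, the 11 of conventional dendritic cells summed to 794 to 4494 CPM in stem-like and 221 to 2168 CPM in other gated cells, with Ccr7, which T cells express themselves, among them. The 14 macrophage and monocyte markers summed to 847 to 1741 CPM in stem-like and 520 to 1717 CPM in other gated cells, of which Csf1r and C1qa are 0 by the gate. Ly6c2, which memory CD8 T cells express themselves, made up 644 to 1348 CPM of the stem-like and 203 to 1242 CPM of the other gated sums. The 10 B-cell markers summed to 53.8 to 172 CPM in stem-like and 29.9 to 79.4 CPM in other gated cells. Melanoma markers reached 7.08 CPM and red-cell markers were at 0 in stem-like cells.

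No doublet caller was run, and barcodes that held at least 2 genes and 3 UMIs of another lineage were instead left out as an alternative. That removed 2 of 159 stem-like cells in the fusion, 27 of 745 in the combination, 13 of 603 in the IL15 superagonist, 15 of 157 in the anti-PD1 and 4 of 71 in the PBS library. Outside the IL15 superagonist library, the barcodes removed held most of the UMIs of the MHC class II gene H2-Aa: 199 of 203 in fusion, 334 of 356 in combination, 410 of 414 in anti-PD1 and 209 of 209 in PBS stem-like cells. In the IL15 superagonist library they held 6 of 32. Differences between treatments in stem-like cells are therefore mostly given without these barcodes, and for some genes and lists also with them.

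The IL15 superagonist and combination libraries held the largest shares of stem-like cells. Of the gated CD8 T cells, 159 of 1528 were stem-like in the fusion (10.4%, 8.92 to 12.05), 745 of 2436 in the combination (30.6%, 28.8 to 32.5), 603 of 1484 in the IL15 superagonist (40.6%, 38.1 to 43.2), 157 of 728 in the anti-PD1 (21.6%, 18.6 to 24.7) and 71 of 649 in the PBS library (10.9%, 8.64 to 13.6). The intervals of fusion and PBS overlapped, and those of the other 3 libraries overlapped with none. Of all cells, stem-like cells were 1.84% in the fusion, 8.77% in the combination, 9.02% in the IL15 superagonist, 2.15% in the anti-PD1 and 1.19% in the PBS library. Gated CD8 T cells of both kinds were 17.7% of all cells in fusion, 28.7% in combination, 22.2% in IL15 superagonist, 9.98% in anti-PD1 and 10.9% in PBS. The gate bars cells by granzymes and proliferation genes, so these are not shares of all CD8 T cells. Cd8a was detected in 77.0% of all cells in fusion, 37.3% in combination, 28.4% in IL15 superagonist, 18.0% in anti-PD1 and 18.1% in PBS. The stem-like shares therefore refer to the gated part of the CD8 T cells alone. With each cell thinned to 2000 UMIs, the stem-like share of gated cells was 2.44% in the fusion, 13.2% in the combination, 20.6% in the IL15 superagonist, 7.15% in the anti-PD1 and 4.41% in the PBS library. Thinning kept the order of the 3 highest libraries, and the fusion and PBS intervals, 1.86 to 3.13 and 2.90 to 6.39, still overlapped. It also let more cells pass the upper limits of the gate on granzymes and proliferation genes, so that the gated cells of the fusion library numbered 2423. Shares are relative measures, and more stem-like cells cannot be told apart from fewer cells of other kinds.

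**Figure D1:**
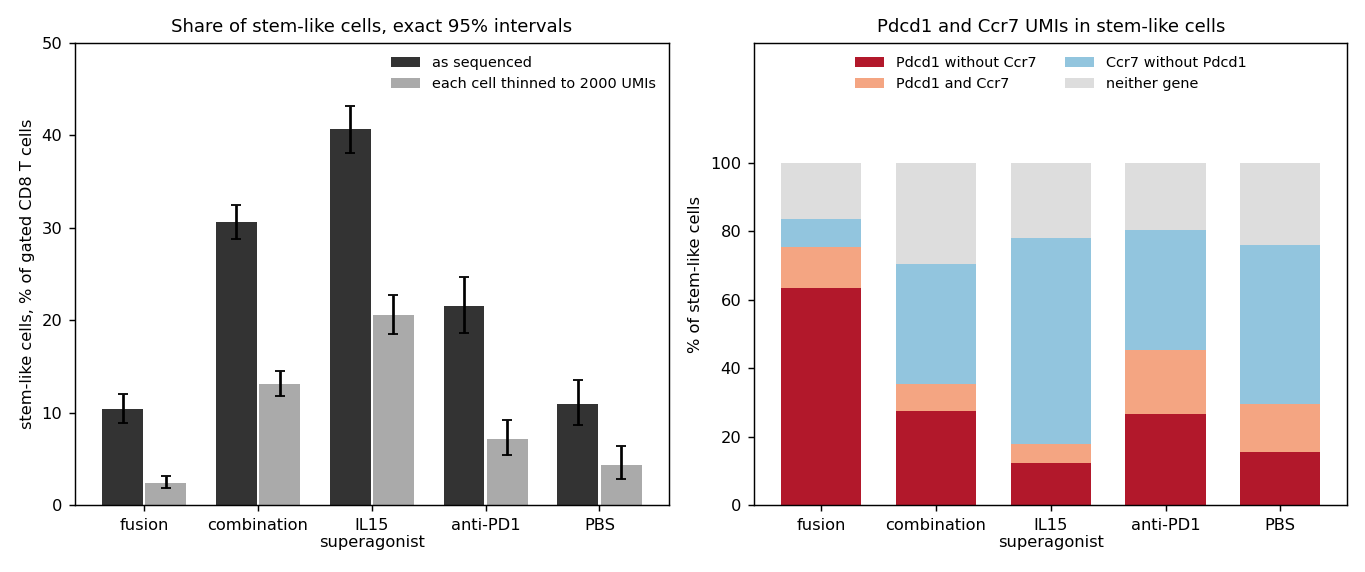
Left, stem-like cells as percent of gated CD8 T cells in each library, as sequenced and with each cell thinned to 2000 UMIs, with exact 95% intervals. Right, percent of stem-like cells with UMIs of Pdcd1, of Ccr7, of both or of neither gene; cells with Pdcd1 and no Ccr7 make up 63.5% in the fusion and 15.5% in the PBS library.

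The cutoff ran through a continuous range. Gated cells with a sum of exactly 2, just inside, numbered 91 in fusion, 277 in combination, 184 in IL15 superagonist, 66 in anti-PD1 and 31 in PBS. Those with a sum of exactly 1, just outside, numbered 311 in fusion, 524 in combination, 272 in IL15 superagonist, 109 in anti-PD1 and 56 in PBS. More cells lay just outside than just inside in every library. The cells met the rule through different genes. Tcf7 was detected in 52.8% of stem-like cells in fusion, 64.8% in combination, 70.3% in IL15 superagonist, 78.3% in anti-PD1 and 70.4% in PBS. S1pr1 was detected in 44.7% in fusion, 68.5% in combination, 68.2% in IL15 superagonist, 53.5% in anti-PD1 and 64.8% in PBS, and Lef1 in 65.4%, 62.1%, 69.0%, 48.4% and 49.3% in the same order. Fusion cells were the ones with the lowest shares for Tcf7 and S1pr1, and 44.7% of them met the rule through 1 gene alone, against 26.3% in combination, 19.2% in IL15 superagonist, 33.8% in anti-PD1 and 29.6% in PBS. These are the genes of the rule and are given as a description.

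What else set the stem-like cells apart was tested on genes outside the gate. UMIs were summed per library and population, and stem-like and other gated cells were compared within each of the 5 libraries with edgeR's quasi-likelihood test and Benjamini-Hochberg adjustment over 9287 genes. The cells were split by their own UMIs, so a p-value here measures how evenly a difference recurred over 5 libraries and is no test that the populations are separate. At an adjusted p below 0.05, 960 genes (10.3% of those tested) were higher in stem-like cells and 867 (9.34%) were lower. The median log2 difference over all genes was -0.00047.

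Most genes of naive and central memory T cells were higher in stem-like cells. Of 16 tested, 13 rose and none fell, with a median log2 difference of 1.34. Il7r, the receptor chain through which IL-7 supports resting T cells, had 68.5, 316, 355, 325 and 289 CPM in stem-like cells of fusion, combination, IL15 superagonist, anti-PD1 and PBS, against 20.96, 87.0, 108, 46.2 and 19.1 CPM in other gated cells. Its stem-like level in fusion lay below the other gated level in combination and IL15 superagonist, so the ranges overlapped across libraries while the difference within each library was positive (log2 2.34 ± 0.26, SE, n = 5, edgeR adjusted p = 0.00032). Dapl1 (log2 2.81 ± 0.32), Nsg2 (2.92 ± 0.16), Satb1, a chromatin organizer (1.93 ± 0.25), Klf3 (2.28 ± 0.22), Ccr7 (1.53 ± 0.22), Bach2 (1.35 ± 0.14) and Foxp1 (1.33) rose as well. Npc2, Ramp1 and Ltb did not pass the test, with log2 differences of 0.20, -0.12 and 0.20.

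Transcription factors linked to the stem-like state moved with the 2 in the gate. Apart from Tcf7 and Lef1, 11 of 13 rose and none fell (median log2 1.33), including Id3 (2.08 ± 0.25), Myb (1.70 ± 0.22) and Zeb1 (1.13). Klf2, the factor that drives S1pr1, had 131, 273, 395, 523 and 485 CPM in stem-like cells of fusion, combination, IL15 superagonist, anti-PD1 and PBS, against 69.2, 90.3, 126, 126 and 37.9 CPM in other gated cells. The stem-like cells were thus higher in every library, least so in fusion (log2 difference 0.92) and most in PBS (3.68), with a fitted log2 difference of 1.97 ± 0.29 (SE, n = 5, edgeR adjusted p = 0.0011). Foxo1 (log2 0.17) and Elf4 (0.00) did not pass. Genes of egress and homing rose in 10 of 14 cases with none lower (median log2 0.78); besides Ccr7 and Klf2 they included S1pr4, the gut-homing integrin chain Itgb7 (1.27 ± 0.12), Cxcr4, Cxcr3 (0.77 ± 0.15), Arhgap15, Gimap4 and Gimap6. Quiescence genes rose in 11 of 17 cases with none lower (median log2 0.61), led by Pik3ip1, an inhibitor of PI3-kinase (2.35 ± 0.23), and including Cdkn1b, Btg1, Tob1 and Txnip.

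Another 3 of the 12 higher genes named by rule belong to lipid, sugar and nucleotide metabolism: Elovl6, a fatty acid elongase (log2 2.49 ± 0.30), Cmah, which makes a hydroxylated sialic acid (2.62 ± 0.21), and Pde2a, which breaks down cyclic nucleotides (2.21 ± 0.15). Also named by rule were Fam101b, an actin regulator (3.22 ± 0.22), and Sidt1, a membrane protein of nucleic acid transport (1.91 ± 0.19). Levels of these 5 genes in stem-like cells ran from 9.49 to 160 CPM over the libraries. They were lowest in fusion for each of the 5.

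Effector genes were mostly lower, with exceptions among the granzymes. Of 22 cytotoxic effector genes, 12 fell, 2 rose and 8 did not pass (median log2 -0.65). Ifng, the effector cytokine, had 21.1, 28.9, 18.6, 71.7 and 20.6 CPM in stem-like cells of fusion, combination, IL15 superagonist, anti-PD1 and PBS, against 64.4, 157, 224, 294 and 59.0 CPM in other gated cells. Stem-like cells were lower in all 5 libraries (log2 -2.43 ± 0.22, SE, n = 5, edgeR adjusted p = 0.00014). The chemokine genes Ccl3 (log2 -2.47 ± 0.42) and Ccl4 (-1.98 ± 0.32), perforin Prf1 (-1.67 ± 0.17), granzyme B Gzmb (-1.12 ± 0.18), Cx3cr1 (-1.58 ± 0.24), Id2 (-1.36 ± 0.18) and Tbx21 (-0.80) fell with it. The 2 that rose were Gzmm (1.94 ± 0.20), with 3.44 to 45.4 CPM in stem-like cells, and Gzma (0.57 ± 0.13). Gzma, which encodes granzyme A, had 2125, 1494, 1016, 244 and 127 CPM in stem-like cells of fusion, combination, IL15 superagonist, anti-PD1 and PBS, against 1244, 978, 920, 232 and 54.99 CPM in other gated cells. The gap between libraries was therefore far wider than the gap between the populations. The latter was 0.08 in anti-PD1 and 1.23 in PBS on the log2 scale (edgeR adjusted p = 0.013, n = 5 libraries). The PBS stem-like value rests on 37 UMIs in 6 cells, 23 of them in 1 cell, and the gap without that cell was not tested. By share of cells with Gzma, PBS had 8.45% of stem-like against 7.09% of other gated cells, with overlapping intervals. Those intervals also overlapped in anti-PD1, while stem-like cells lay above without overlap in fusion, combination and IL15 superagonist. Gzmk (log2 -0.24, edgeR adjusted p = 0.37) was higher in fusion and combination stem-like cells and lower in the other 3 libraries.

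Inhibitory receptors and exhaustion genes fell in 14 of 19 cases and rose in none (median log2 -0.999). Havcr2 (log2 -1.84 ± 0.23), Lag3 (-1.70 ± 0.25), Tnfrsf9 (-1.72 ± 0.21), Tox (-1.35 ± 0.17), Entpd1 (-0.999) and Tigit (-0.93) were among them. Pdcd1 itself had 755, 261, 172, 338 and 196 CPM in stem-like cells of fusion, combination, IL15 superagonist, anti-PD1 and PBS, against 985, 671, 754, 625 and 419 CPM in other gated cells. It was lower in stem-like cells of all 5 libraries (log2 -1.11 ± 0.19, SE, n = 5, edgeR adjusted p = 0.0025), and the fusion stem-like level was above that of other gated cells in 4 of the 5 libraries. Rgs16, a regulator of G-protein signalling (-1.86 ± 0.23), the chemokine receptor Ccr8 (-2.48 ± 0.22), the enkephalin precursor Penk (-2.45 ± 0.39), neurogranin Nrgn (-2.33 ± 0.28), Tmprss6 (-2.51 ± 0.29), the glycine decarboxylase Gldc (-1.95 ± 0.21), the cell cycle inhibitor Cdkn2a (-1.95 ± 0.43), Prr5l (-1.95 ± 0.30) and the protease inhibitor Serpine2 (-1.92 ± 0.24) complete the 12 lower genes named by rule with Ifng, Ccl3 and Ccl4.

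Metabolic genes were lower in stem-like cells. Glycolysis genes fell in 12 of 18 cases (median log2 -0.48), among them Tpi1 (-1.03 ± 0.16), Gapdh (-0.76) and the lactate exporter Slc16a3 (-1.04 ± 0.18), and oxidative phosphorylation genes fell in 13 of 22 (median -0.27), with none higher in either list. Of 22 cell cycle genes outside the gate, 8 fell, among them Tk1 (-1.19), Dut (-0.94) and Mcm3 (-0.75), while none rose; the gate itself limits Mki67 and Top2a.

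The lists for particular T-cell states gave mixed counts. Of 17 genes of precursors of exhausted T cells, 7 rose, namely Slamf6 (log2 1.72 ± 0.13), Cxcr5 (2.41 ± 0.44), Id3, Bcl6, Nt5e, Myb and Cd69, and 6 fell, namely Pdcd1, Tox, Xcl1, Cd200, Tnfrsf4 and Rgs2. Of 16 genes of virtual and bystander memory, Cxcr3 and Bcl2 (0.92 ± 0.18) rose and Il2rb, Klrd1, Klrc1, Ly6a and Nkg7 fell. Il2rb, the receptor chain that binds IL-15, had 596, 461, 471, 345 and 244 CPM in stem-like cells of fusion, combination, IL15 superagonist, anti-PD1 and PBS, against 702, 684, 742, 709 and 784 CPM in other gated cells. The other gated cells were within a narrow range over libraries while stem-like cells were not, and the fitted log2 difference was -0.73 ± 0.15 (SE, n = 5, edgeR adjusted p = 0.0060). Cd44 (log2 -0.06, edgeR adjusted p = 0.71) and Ly6c2 (0.60, edgeR adjusted p = 0.072), which mark antigen-experienced and memory cells, did not pass. Of 19 genes of IL-2 or IL-15 signalling through STAT5, 8 rose and 4 fell. Those higher were signalling and feedback genes, Jak1, Stat5a, Stat5b, Socs1, Socs3 (0.99 ± 0.13), Pim1, Pim2 (1.24 ± 0.19) and Bcl2, and those lower were Il2ra (-0.78), Il2rb, Cish (-0.58) and Bcl2l1 (-0.56). Type I interferon genes rose in 6 of 24 cases, led by Oasl2 (1.60 ± 0.35). Of 10 tissue residency genes, Itgae (1.15 ± 0.32), Cd69, Ahr and Ldlrad4 rose and Cxcr6 (-1.55 ± 0.27), Xcl1 and Rgs1 fell. Bcl2-family survival genes were divided, with 3 higher and 4 lower of 12. T-cell receptor signalling genes rose in 4 and fell in 1 of 17 cases, and of 16 immediate early and heat shock genes 1 rose and 1 fell.

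**Figure D2:**
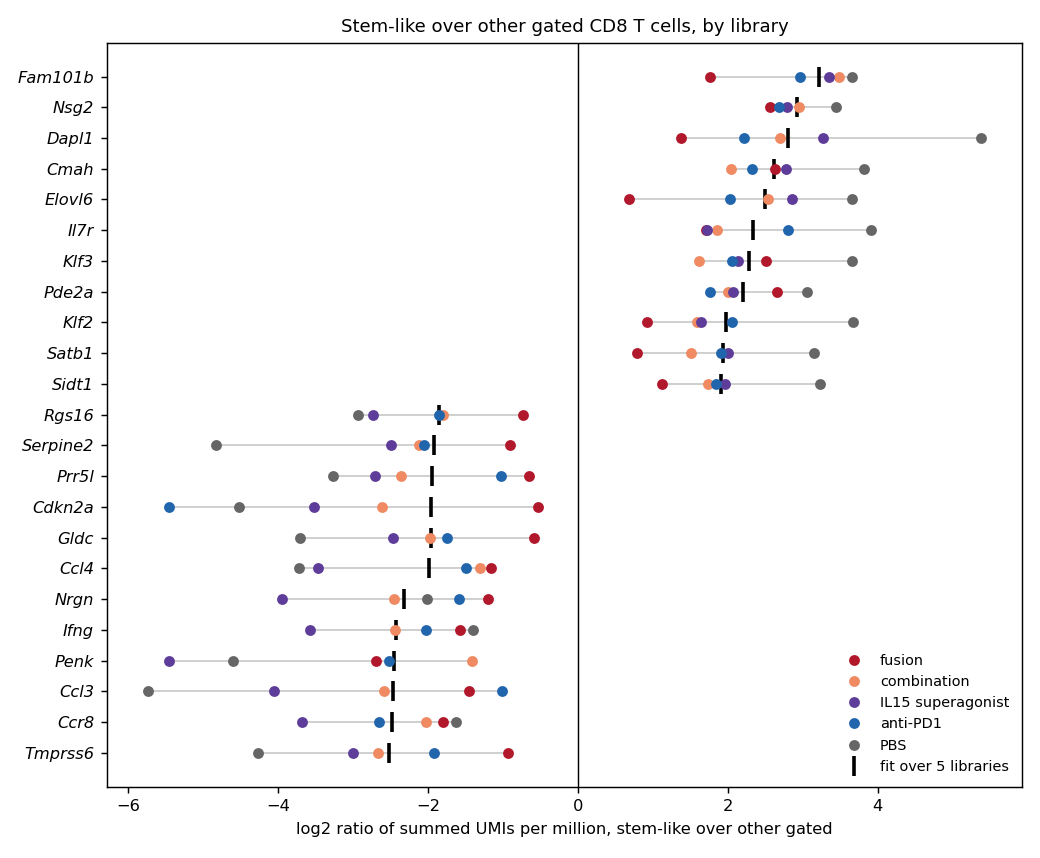
Log2 ratio of summed CPM, stem-like over other gated CD8 T cells, for 23 genes named by rule, with a point for each library and a bar for the fit over 5 libraries. Each point of a gene lies on the same side of 0; fusion gives the smallest difference for 16 of the 23 genes and PBS the largest for 18.

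The size of the difference varied between libraries. Of 23 genes named by rule, the smallest difference was in the fusion library for 16 and the largest in the PBS library for 18, where stem-like cells were fewest. No such difference between libraries was tested, since each treatment has 1 library. Without the IL15 superagonist library the counts were 528 higher and 404 lower, without the combination library 461 and 356, and without any other single library 668 to 1037 higher and 561 to 903 lower. These 23 named genes passed in the same direction without each library in turn.

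The stem-like cells differed among themselves in Pdcd1, which the gate did not use. At least 1 Pdcd1 UMI was found in 120 of 159 stem-like cells of the fusion (75.5%, 68.0 to 81.9), 263 of 745 of the combination (35.3%, 31.9 to 38.9), 108 of 603 of the IL15 superagonist (17.9%, 14.9 to 21.2), 71 of 157 of the anti-PD1 (45.2%, 37.3 to 53.4) and 21 of 71 of the PBS library (29.6%, 19.3 to 41.6). Fusion stood above the other 4 libraries and IL15 superagonist below combination and anti-PD1. Macrophage barcodes held a Pdcd1 UMI in 0.70% to 5.13% of cases, at 5615 to 7814.5 UMIs, and the other gated cells in 94.4% in fusion, 72.5% in combination, 73.1% in IL15 superagonist, 81.3% in anti-PD1 and 76.8% in PBS. With cells thinned to 2000 UMIs and then gated, the stem-like shares were 59.3% in fusion, 20.7% in combination, 12.5% in IL15 superagonist, 37.5% in anti-PD1 and 23.1% in PBS (6 of 26 cells). Fusion was again highest and IL15 superagonist lowest. PBS (8.97 to 43.6) lay above combination (16.5 to 25.6) in this setting and below it as sequenced, with overlapping intervals. When the cells gated as sequenced were thinned without a new gate, PBS was at 22.2% and combination at 24.6%.

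Cells with the lymph node homing receptor Ccr7 ran the other way. Those with Ccr7 and no Pdcd1 made up 8.18% of stem-like cells in fusion, 35.2% in combination, 60.03% in IL15 superagonist, 35.03% in anti-PD1 and 46.5% in PBS. Those with Pdcd1 and no Ccr7 made up 63.5% in fusion, 27.5% in combination, 12.3% in IL15 superagonist, 26.8% in anti-PD1 and 15.5% in PBS. The label of stem-like memory thus covered different mixtures: Pdcd1 without Ccr7 was the most frequent of the 4 combinations in fusion, and Ccr7 without Pdcd1 was the most frequent in the other 4 libraries. Macrophage barcodes held Ccr7 in 1.28% to 3.22% of cases. Il7r was found in 18.9% of stem-like cells in fusion (13.1 to 25.8) and in 51.9% to 59.2% in the other 4 libraries. Macrophage barcodes held Il7r in 28.2% in fusion, above the stem-like share of that library, at a median of 6560 against 5120 UMIs. In the other libraries they held it in 18.8% (combination) to 26.6% (PBS). Other gated cells of the fusion library held Il7r in 8.62% (7.19 to 10.2), below the stem-like cells of that library. Gzmb was found in 79.9% in fusion, 48.3% in combination, 36.3% in IL15 superagonist, 33.8% in anti-PD1 and 19.7% in PBS, against 23.3%, 4.94%, 6.53%, 3.81% and 2.40% of macrophage barcodes. Gzma was found in 49.1% in fusion, 43.9% in combination, 44.4% in IL15 superagonist, 20.4% in anti-PD1 and 8.45% in PBS, against 11.0%, 7.56%, 12.1%, 2.93% and 2.33% of macrophage barcodes. With cells thinned to 2000 UMIs and then gated, Gzma was found in 42.4% of stem-like cells in fusion, 31.9% in combination, 29.4% in IL15 superagonist, 12.5% in anti-PD1 and 11.5% in PBS, and Gzmb in 67.8%, 28.8%, 21.8%, 19.6% and 11.5% in the same order. Macrophage shares of Gzma moved with those of stem-like cells at a lower level, and the part of free RNA in the stem-like shares was not tested.

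Stem-like cells with and without a Pdcd1 UMI were compared within each library in the same way, over 5058 genes. The Pdcd1-positive cells were the deeper ones, with median UMIs of 5490.5 against 4183 in fusion, 4695 against 4003.5 in combination, 4398.5 against 4009 in IL15 superagonist, 4701 against 3608 in anti-PD1 and 3724 against 3203 in PBS. In this comparison 345 genes (6.82%) were higher and 374 (7.39%) lower in Pdcd1-positive cells at an edgeR adjusted p below 0.05, with a median log2 difference over all genes of -0.0088.

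Inhibitory receptors accompanied Pdcd1. Of 15 tested besides Pdcd1, 13 rose and none fell (median log2 1.28). Lag3 had 178, 157, 237, 187 and 251 CPM in Pdcd1-positive stem-like cells of fusion, combination, IL15 superagonist, anti-PD1 and PBS, against 89.8, 21.6, 10.4, 42.0 and 27.3 CPM in Pdcd1-negative ones. The groups did not overlap (log2 2.87 ± 0.30, SE, n = 5, edgeR adjusted p = 9.7e-06). Tox, a factor of the exhausted state, had 87.0, 102, 119, 119 and 130 CPM in the positive and 28.1, 22.5, 19.4, 25.2 and 27.3 CPM in the negative cells. It was higher in all 5 libraries without overlap (log2 2.19 ± 0.16, SE, n = 5, edgeR adjusted p = 1.5e-07). Rgs16 (3.31 ± 0.22), Tnfrsf9 (2.07 ± 0.14), Havcr2 (2.05 ± 0.35, at 0 UMIs in PBS positive cells), Ctla4 (1.29) and Tigit (1.28) rose too.

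Cytotoxic genes also went with Pdcd1: 13 of 18 rose and 1 fell (median log2 0.68). Ccl3 (2.52 ± 0.20) and Ccl4 (2.28 ± 0.17) rose in 4 of 5 libraries, without PBS, and Gzmb (1.07 ± 0.14) and Id2 (1.40 ± 0.10) in all 5. Gzma did not follow, with 2244, 1595, 840, 201 and 232 CPM in positive cells of fusion, combination, IL15 superagonist, anti-PD1 and PBS, against 1611, 1422, 1064, 297 and 65.6 CPM in negative cells (log2 -0.01, edgeR adjusted p = 0.98). In positive and negative cells alike, the 3 libraries with an IL15 agent had the highest levels. Gzmm was the member that fell (-1.57 ± 0.34). Of 16 virtual memory genes, 8 rose and Bcl2 fell (-0.99 ± 0.20), and of 12 other precursor genes of exhausted cells, 7 rose, among them Xcl1 (2.41 ± 0.50), Tnfrsf4 (2.83 ± 0.26), Tox and Icos (0.60), while Myb (-1.03 ± 0.20) and Cd69 (-0.79) fell; Slamf6 did not pass (-0.30, edgeR adjusted p = 0.29). Glycolysis genes rose in 9 of 15 cases (median log2 0.53).

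Genes of naive and central memory cells were lower in the Pdcd1-positive cells, 10 of 15 with none higher (median log2 -0.95). Satb1 had 58.4, 213, 236, 91.4 and 204 CPM in Pdcd1-positive stem-like cells of fusion, combination, IL15 superagonist, anti-PD1 and PBS, against 179.6, 563, 711, 518 and 754 CPM in Pdcd1-negative ones. It was lower in the positive cells of each library, although the ranges over libraries overlapped (log2 -1.84 ± 0.14, SE, n = 5, edgeR adjusted p = 3.3e-07). Il7r (-1.01 ± 0.11), Klf2 (-1.26 ± 0.11), Klf3 (-1.41 ± 0.14) and Bach2 (-1.40 ± 0.17) fell in all 5 libraries. Dapl1 (-1.37 ± 0.32) and Ccr7 (-0.82 ± 0.21) fell in the fit, but Dapl1 was higher in positive cells of anti-PD1 and PBS, and Ccr7 was higher in those of PBS. Of the stem-like transcription factors outside the gate, 8 of 11 fell and none rose. Tcf7 (-0.87 ± 0.12) and Lef1 (-0.91 ± 0.14), gate genes whose levels within the gate are given as a description, were lower as well.

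By rule, the other higher genes were Nrgn (log2 4.69 ± 0.37), Nrn1, which encodes neuritin (3.50 ± 0.37), Areg, which encodes the growth factor amphiregulin (3.49 ± 0.22), Spp1, which encodes osteopontin (3.50 ± 0.39), Tnfsf11, which encodes the cytokine RANKL (2.52 ± 0.27), the sulfotransferase Chst12 (2.18 ± 0.20) and the metallothionein Mt1 (2.099 ± 0.24). The other lower genes were Tmem108 (-3.05 ± 0.32), Nsg2 (-2.04 ± 0.23), Fam101b (-1.97 ± 0.16), Elovl6 (-1.86 ± 0.23), Pde2a (-1.65 ± 0.19), Dph5, of the diphthamide pathway (-1.56 ± 0.22), Txk, a Tec-family kinase (-1.56 ± 0.18), Jun (-1.59 ± 0.21) and the Ly49 receptor gene Klra7 (-2.27 ± 0.52). Klra7 belongs to a family of near-identical genes whose reads may be shared, and 2 of that family are barred by the gate. Spp1 had 87.0, 34.5, 71.6, 1104 and 65.0 CPM in positive cells of fusion, combination, IL15 superagonist, anti-PD1 and PBS, against 22.4, 3.76, 14.7, 11.2 and 10.9 CPM in negative ones; in anti-PD1, 447 of the 487 Spp1 UMIs of stem-like cells sat in 1 barcode. Without the IL15 superagonist library the counts were 169 higher and 203 lower, and without the combination library 177 and 177. With the barcodes of other-lineage markers left out, a count run after the data had been seen, PBS no longer had 20 Pdcd1-positive cells and the other 4 libraries gave 399 higher and 430 lower.

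**Figure D3:**
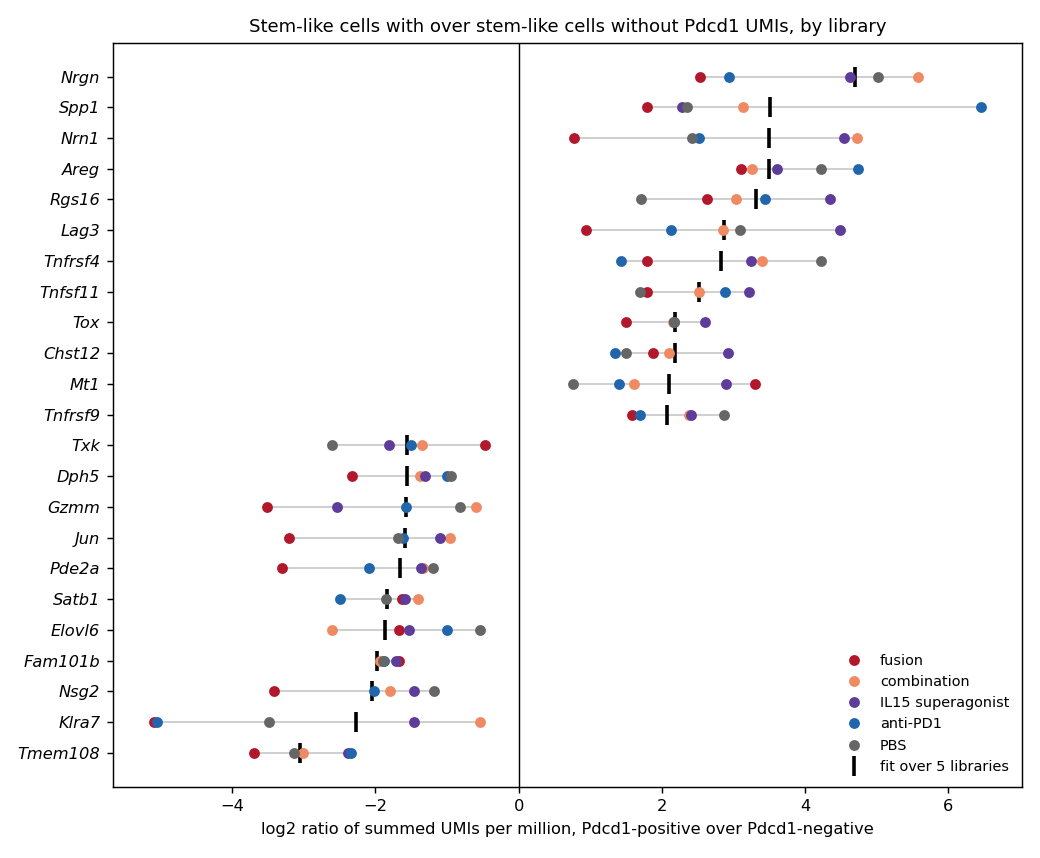
Log2 ratio of summed CPM, Pdcd1-positive over Pdcd1-negative stem-like cells, for 23 genes named by rule, with a point for each library and a bar for the fit over 5 libraries. Satb1 lies between -2.49 and -1.40, and Spp1 has a point at 6.46 in the anti-PD1 library, far from the 1.80 to 3.13 of the others.

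The T-cell receptor beta genes gave a readout that the gate did not use. For each cell, the Trbv segment with the most UMIs was taken as leading, and the effective number of segments (inverse Simpson index, corrected for sample size) was computed over cells. It was 10.2 in stem-like cells of the fusion library, 15.6 in the combination, 15.7 in the IL15 superagonist, 14.4 in the anti-PD1 and 18.0 in the PBS library, against 9.69, 10.4, 9.17, 8.81 and 8.76 in other gated cells. Stem-like cells were more evenly spread over segments in 5 of 5 libraries, by a mean of 5.42 ± 3.16 (SD, n = 5; exact two-sided sign-flip permutation test, p = 0.062, the smallest that 5 pairs allow, so 0.05 could not be reached). The difference was smallest in fusion. The corrected index can exceed the number of segments seen, as in PBS stem-like cells, where 16 segments were seen. Without PBS the mean difference was 4.45 (n = 4). In PBS, 38 of 71 stem-like cells had a leading segment, and in the other libraries 133 of 157 in anti-PD1, 535 of 603 in IL15 superagonist, 656 of 745 in combination and 145 of 159 in fusion.

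One segment, Trbv19 (chr6:41178375-41179048), led in more cells of the other gated population than any other segment in 4 of 5 libraries. It led in 24.1% of stem-like cells in fusion (17.4 to 31.9), 11.1% in combination (8.82 to 13.8), 9.91% in IL15 superagonist (7.51 to 12.8), 9.77% in anti-PD1 (5.31 to 16.1) and 13.2% in PBS (5 of 38 cells, 4.41 to 28.1). In other gated cells it led in 24.4% in fusion, 23.6% in combination, 25.6% in IL15 superagonist, 22.5% in anti-PD1 and 16.1% in PBS. The fusion stem-like cells thus had the share of other gated cells, while the combination, IL15 superagonist and anti-PD1 intervals lay below it. Among stem-like cells, Pdcd1-positive ones had Trbv19 in 27.8% in fusion, 14.2% in combination, 19.4% in IL15 superagonist, 15.9% in anti-PD1 and 9.09% in PBS (1 of 11 cells), against 13.5%, 9.35%, 7.78%, 4.29% and 14.8% of Pdcd1-negative ones. Positive cells were higher in 4 of 5 libraries. The effective number of segments was 8.88 in Pdcd1-positive stem-like cells of fusion, 15.5 in combination, 12.5 in IL15 superagonist, 13.6 in anti-PD1 and 18.3 in PBS, against 15.1, 15.2, 16.0, 13.6 and 17.6 in Pdcd1-negative ones, so the low value of fusion lay in its positive cells. Few cells stood behind some of these values. In PBS, 8 segments were seen in 11 positive and 14 in 27 negative cells, and in fusion 14 were seen in 37 negative cells. A segment is no clonotype, and no shared clone can be read from these shares.

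**Figure D4:**
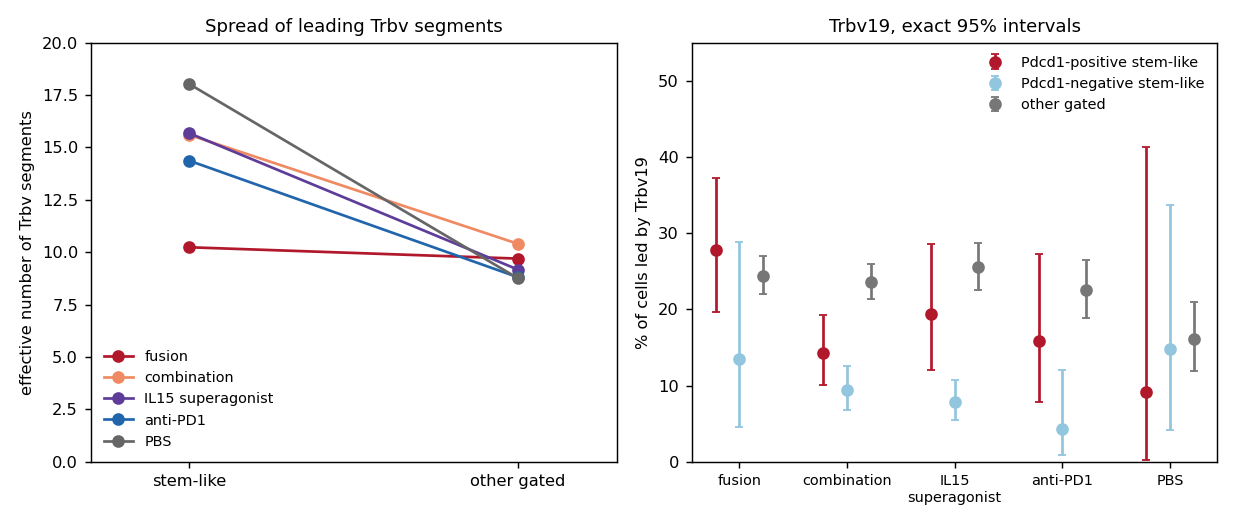
Left, effective number of leading Trbv segments in stem-like and other gated CD8 T cells, a line for each library; stem-like cells have the higher end of all 5 lines. Right, percent of cells led by Trbv19 in Pdcd1-positive and Pdcd1-negative stem-like cells and other gated cells, with exact 95% intervals; positive stem-like cells run from 9.09% in PBS to 27.8% in fusion.

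Between treatments, levels in stem-like cells were compared as CPM of the summed cells, with exact intervals, for genes with at least 30 UMIs over both libraries. There is no test, and a gene counts as changed in size when it differed at least 2-fold. With every stem-like barcode, fusion against PBS had 844 genes at least 2-fold higher (19.0% of 4452) and 363 lower (8.15%), combination against PBS had 998 higher (13.3% of 7487) and 397 lower (5.30%), IL15 superagonist against PBS had 818 higher (12% of 6802) and 348 lower (5.12%), and anti-PD1 against PBS had 327 higher (8.01% of 4082) and 97 lower (2.38%). The comparisons that leave PBS out had smaller shares of higher genes. Genes were counted by their ratio alone, whatever its interval. PBS stem-like cells held 290595 UMIs in all, against 794994 in anti-PD1, 948309 in fusion, 2685148 in IL15 superagonist and 3636368 in combination. A gene near the minimum of 30 UMIs thus rests on few PBS UMIs, and the part of counting error in the PBS shares was not tested. Fusion against combination had 274 higher (3.50% of 7826) and 525 lower (6.71%), fusion against anti-PD1 had 244 higher (4.45% of 5484) and 322 lower (5.87%), and IL15 superagonist against anti-PD1 had 339 higher (4.68% of 7245) and 298 lower (4.11%).

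Without the other-lineage barcodes, fusion against PBS had 947 higher (22.4% of 4231) and 358 lower (8.46%), combination against PBS had 1147 higher (15.7% of 7319) and 369 lower (5.04%), IL15 superagonist against PBS had 901 higher (13.5% of 6678) and 329 lower (4.93%), and anti-PD1 against PBS had 291 higher (8.42% of 3458) and 76 lower (2.20%). Fusion against combination had 257 higher (3.34% of 7705) and 510 lower (6.62%), fusion against anti-PD1 had 293 higher (5.72% of 5123) and 245 lower (4.78%), and IL15 superagonist against anti-PD1 had 370 higher (5.26% of 7035) and 198 lower (2.81%). The 4 comparisons with PBS share that library, and the PBS stem-like cells without those barcodes were 67. The median log2 ratio over all genes was 0.26 for fusion, 0.11 for combination, 0.08 for IL15 superagonist and 0.13 for anti-PD1 against PBS, -0.03 for fusion against combination and 0.07 for fusion against anti-PD1, and list medians below are to be read against these.

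With the other-lineage barcodes kept, the 5 genes per direction named by rule included MHC class II and myeloid genes. IL15 superagonist against PBS, for instance, gave H2-Eb1 8.19 against 595 CPM, H2-Ab1 10.4 against 664 CPM and Cd74 38.7 against 1604 CPM, and 170 of the 173 PBS UMIs of H2-Eb1 sat in the barcodes left out. Anti-PD1 gave Arg1 146 CPM against 0 UMIs in PBS and Ccl2 165 CPM against 0 UMIs in PBS, with 115 of 116 and 127 of 131 UMIs in such barcodes. Others were stress genes at high level in 1 PBS barcode: Hspa1a, a heat shock gene, had all 80 of its PBS UMIs there, and it was 27.4-fold lower in IL15 superagonist and 5.61-fold lower in anti-PD1 than in PBS. Without the other-lineage barcodes PBS had 0 Hspa1a UMIs, and anti-PD1 was at least 4.14-fold higher with that 0 set to 3. The chemokine and interleukin-1 system genes Ccl7, Cxcl1, Cxcl2, Cxcl3, Il1b and Il1r2, with Ly6d, were likewise among the genes named only with every barcode kept, as were Hspa1b, Gadd45g, Gadd45a, Sgk1, Fam46a and Cst3. Named that way were also Aldoa, of glycolysis, in fusion (7.06-fold above PBS), Ctla2b in combination and IL15 superagonist (7.54-fold and 5.83-fold above PBS) and Ccnb2, of the cell cycle, in fusion (16.2-fold above combination). The values that follow are without the other-lineage barcodes unless stated, and the choice to name genes this way was made after seeing the data.

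By CPM, Gzma and Gzmb were higher in each library that received an IL15 agent. Gzma had 2194 CPM in fusion, 1532 in combination, 1022 in IL15 superagonist, 290 in anti-PD1 and 153 in PBS stem-like cells. The order of libraries was the same in other gated cells. Fusion exceeded PBS 14.3-fold (10.4 to 20.4), combination 10.0-fold (7.26 to 14.2) and IL15 superagonist 6.69-fold (4.84 to 9.52), and without PBS, IL15 superagonist exceeded anti-PD1 3.53-fold (3.05 to 4.11) and fusion exceeded anti-PD1 7.58-fold (6.53 to 8.83). The PBS value rests on 37 UMIs in 6 cells, of which 23 were in 1 cell. Gzmb had 1882 CPM in fusion, 934 in combination, 663 in IL15 superagonist, 466 in anti-PD1 and 207 in PBS. Its order was the same. By share of cells, with every stem-like barcode kept, the Gzmb intervals of IL15 superagonist (36.3%, 32.5 to 40.3) and anti-PD1 (33.8%, 26.4 to 41.7) overlapped. Cytotoxic effector genes were at least 2-fold higher and never 2-fold lower than PBS in 12 of 15 compared in fusion (median log2 1.51), 15 of 21 in combination (1.18), 10 of 19 in IL15 superagonist (1.06) and 7 of 16 in anti-PD1 (0.92). Fusion against combination, in contrast, had 1 of 21 higher and 1 lower. Against anti-PD1, IL15 superagonist had 4 of 20 higher and 5 lower (median log2 0.08), and fusion had 5 of 16 higher and 3 lower (0.58). With every stem-like barcode kept, IL15 superagonist against anti-PD1 had 2 of 20 higher and 5 lower (-0.11), so the sign of its median turned. In that setting fusion against anti-PD1 had 5 of 19 higher and 4 lower (0.51), and fusion against combination 1 of 21 higher and 3 lower. The NK receptor genes Klrc1 and Klrd1 followed the pattern of Gzma and Gzmb. Klrc1 had 303 CPM in fusion, 331 in combination and 296 in IL15 superagonist, against 169 in anti-PD1 and 70.3 in PBS.

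By CPM, the chemokine genes Ccl3 and Ccl4 and the cytokine gene Ifng were highest in anti-PD1 cells. Ccl3 had 31.6 CPM in fusion, 62.6 in combination, 24.1 in IL15 superagonist, 362 in anti-PD1 and 8.27 in PBS (2 UMIs), and Ccl4 had 169, 254, 95.6, 342 and 37.2 CPM in the same order. Ifng had 21.8 CPM in fusion, 29.6 in combination, 19.1 in IL15 superagonist, 86.0 in anti-PD1 and 12.4 in PBS (3 UMIs). By share of cells, with every stem-like barcode kept, Ifng was highest in fusion. It was found in 11.3% in fusion, 7.11% in combination, 5.64% in IL15 superagonist, 8.92% in anti-PD1 (14 of 157 cells) and 5.63% in PBS. The intervals of anti-PD1 (4.96 to 14.5) and IL15 superagonist (3.94 to 7.79) overlapped. IL15 superagonist cells were lower than anti-PD1 cells 15.0-fold for Ccl3 (11.3 to 20.2), 3.58-fold for Ccl4 (2.98 to 4.30) and 4.50-fold for Ifng (3.02 to 6.71). Higher in IL15 superagonist than anti-PD1 were, besides Gzma, the interleukin-12 receptor chain Il12rb2 (105 against 22.6 CPM), the NK receptor gene Klrb1c (22.9 CPM against 0 UMIs, at least 5.07-fold with the 0 set to 3 UMIs), Nrarp and the glycerol channel Aqp3.

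Ifitm1, Ifitm2 and Ifitm3, which encode interferon-induced membrane proteins, were highest in fusion. Ifitm1 (chr7:140967221-140969825) had 2121 CPM in fusion, 79.1 in combination, 20.7 in IL15 superagonist, 67.9 in anti-PD1 and 4.13 in PBS (1 UMI). It exceeded combination 26.8-fold (23.6 to 30.5) and anti-PD1 31.2-fold (23.3 to 43.0), and PBS 513-fold with an interval of 92.004 to 20281. With all stem-like barcodes the level was 2054 CPM in fusion, 129.8 in combination, 20.1 in IL15 superagonist, 478 in anti-PD1 and 24.1 in PBS, since 335 of 380 UMIs in anti-PD1 and 199 of 472 in combination sat in barcodes with other-lineage markers. None of the 1948 fusion UMIs did, and they were spread over 68 of 159 cells. Macrophage barcodes held Ifitm1 in 19.2% to 33.6% of cases, more often than stem-like cells of any library but fusion (42.8%). Ifitm2 followed, with 874 CPM in fusion, 47.2 in combination, 17.2 in IL15 superagonist, 34.7 in anti-PD1 and 8.27 in PBS, and Ifitm3 had 132, 22.9, 23.0, 31.7 and 8.27 CPM. Other gated cells of the fusion library had 1624 CPM of Ifitm1 against 181 CPM in combination and 154, 121 and 37.6 CPM in IL15 superagonist, anti-PD1 and PBS, so the high level was not limited to stem-like cells. Of 20 type I interferon genes compared between fusion and combination, 6 were at least 2-fold higher and none lower (median log2 0.44). Fusion against anti-PD1 had 3 of 18 higher and none lower (median log2 -0.10, against 0.07 over all genes). Fusion against PBS had 3 of 17 higher and 1 lower (median log2 0.25, against 0.26 over all genes). Isg15 had 115 CPM in fusion and 73.9 CPM in combination.

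Fusion cells also stood out in metallothioneins, Cdkn2a and Lgals3. Mt1 had 448 CPM in fusion, 40.3 in combination, 49.7 in IL15 superagonist, 72.4 in anti-PD1 and 45.5 in PBS. Its fusion level lay mainly in the Pdcd1-positive cells, at 523 CPM against 50.5 CPM in the negative ones. Cdkn2a had 41.4 CPM in fusion, 1.74 in combination, 1.53 in IL15 superagonist and 0 UMIs in anti-PD1 and PBS, and Ccl1 had 115, 46.7 and 6.12 CPM in fusion, combination and IL15 superagonist with 0 UMIs in anti-PD1 and PBS. Lgals3, which encodes galectin-3, had 1463 CPM in fusion, 347 in combination, 156 in IL15 superagonist, 285 in anti-PD1 and 128 in PBS.

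The memory and homing genes Il7r, Klf2, Satb1 and Ccr7 were lowest in fusion. Il7r had 66.4 CPM in fusion, 313 in combination, 360 in IL15 superagonist, 336 in anti-PD1 and 314 in PBS, so that 4 libraries lay close together and fusion below them, by 4.71-fold against combination (3.64 to 6.20) and 5.06-fold against anti-PD1 (3.80 to 6.84). Klf2 had 126 CPM in fusion, 268 in combination, 402 in IL15 superagonist, 572 in anti-PD1 and 438 in PBS. Satb1 had 80.6 CPM in fusion, 423 in combination, 614 in IL15 superagonist, 284 in anti-PD1 and 645 in PBS, and Ccr7 113, 388, 716, 416 and 574 CPM in the same order. IL15 superagonist was the highest library for Il7r and Ccr7. Naive and central memory genes were at least 2-fold lower in fusion than in PBS for 9 of 13, than in anti-PD1 for 8 of 14 and than in combination for 8 of 16, with none 2-fold higher (median log2 -1.69, -1.48 and -0.93). Egress and homing genes were less uniform: of 14, 4 were at least 2-fold lower and 1 higher in fusion than in PBS, 5 lower and 1 higher than in anti-PD1, and 6 lower and none higher than in combination (median log2 -0.39, -0.35 and -0.49). With every stem-like barcode kept, fusion against combination gave 6 lower and 1 higher of 16 for the naive and central memory list. Stem-like transcription factors were at least 2-fold lower in fusion than in combination for 6 of 13. IL15 superagonist against anti-PD1 had 1 of 18 naive genes higher and 1 lower (median log2 0.48).

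The fusion cells differed in makeup, so the same genes were also read separately in cells with and without a Pdcd1 UMI, over all stem-like barcodes. In Pdcd1-negative cells Il7r had 140 CPM in fusion against 381 in combination, 389 in IL15 superagonist, 428 in anti-PD1 and 366 in PBS. In Pdcd1-positive cells it had 51.9 CPM in fusion against 224, 227, 240 and 158 CPM. Satb1 had 180 CPM in fusion Pdcd1-negative cells against 563 in combination, 711 in IL15 superagonist, 518 in anti-PD1 and 754 in PBS. Fusion was thus the lowest library for Il7r in positive and negative cells and for Satb1 in negative cells. By the levels given earlier, fusion was also the lowest library for Satb1 in positive cells. Ifitm1 had 2328 CPM in fusion Pdcd1-positive and 870 CPM in fusion Pdcd1-negative cells, against 203 and 77.9 CPM in combination. The fusion library held 39 Pdcd1-negative stem-like cells.

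**Figure D5:**
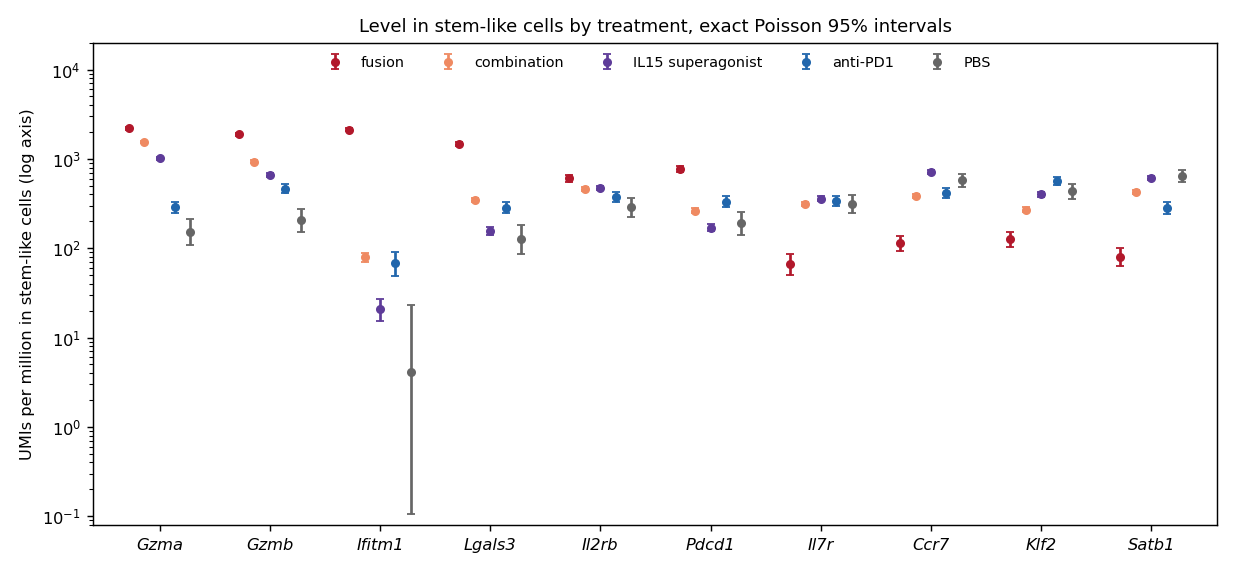
CPM in stem-like cells without other-lineage barcodes for 10 genes, by library, on a log axis with exact Poisson 95% intervals. Gzma is at 2194 in fusion and 153 in PBS, while Il7r is at 66.4 in fusion and between 313 and 360 in the other libraries.

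The inhibitory receptor gene Pdcd1 and the costimulatory receptor gene Tnfrsf9 were highest in fusion. Pdcd1 had 771 CPM in fusion, 264 in combination, 170 in IL15 superagonist, 333 in anti-PD1 and 190 in PBS, and Tnfrsf9 had 564, 201, 147, 210 and 120 CPM in that order. Tox, a transcription factor of exhausted cells, had 77.3 CPM in fusion, 56.2 in combination, 40.9 in IL15 superagonist, 79.95 in anti-PD1 and 41.3 in PBS, so that fusion and anti-PD1 lay close together. Of the list of inhibitory receptor and exhaustion genes, 8 of 19 were at least 2-fold higher and none lower in fusion than in combination (median log2 0.68), 6 of 16 higher and none lower than in anti-PD1 (0.62), and 10 of 16 higher and 1 lower than in PBS (1.73). Of 19 compared between IL15 superagonist and anti-PD1, 4 were lower and none higher (median log2 -0.67). Cell cycle genes were higher in fusion than in combination for 11 of 20, with none lower (median log2 1.33), although cells with 2 or more Mki67 and Top2a UMIs are outside the gate. Stmn1 had 174 CPM in fusion, 48.1 in combination, 49.3 in IL15 superagonist, 101 in anti-PD1 and 41.3 in PBS. Against anti-PD1, fusion had 2 of 17 cell cycle genes higher and 1 lower.

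The rest of the genes named by rule were few-UMI genes or genes outside the lists. Higher than in PBS were Tyrobp, an adaptor of NK receptors (110 CPM in combination and 86.5 CPM in IL15 superagonist, against 8.27 CPM or 2 UMIs in PBS), Rraga (50.5 CPM in IL15 superagonist, against 0 UMIs in PBS) and Amica1 (72.4 CPM in anti-PD1, against 1 UMI in PBS). Sod1, superoxide dismutase, was lower than in PBS in combination (4.99-fold), IL15 superagonist (3.85-fold) and anti-PD1 (2.95-fold), and Erdr1 in fusion (8.95-fold) and IL15 superagonist (4.05-fold). Ramp3 was lower in combination (3.75-fold) and IL15 superagonist (5.40-fold), Ifi27l2a, an interferon-induced gene, in combination (2.64-fold, 2.31 to 3.01), and Igfbp4, a gene of naive T cells, in IL15 superagonist (8.40-fold). Fewer UMIs stood behind Elovl6 and Jmy in fusion, Nrn1 in IL15 superagonist, Trps1 and Rbm4b in combination, and the immediate early gene Egr1, Pan3 and Pmepa1 in anti-PD1, which were 2.92-fold to 9.49-fold lower than in PBS. No ratio that leaves PBS out is given for these genes named against PBS, and a difference of the PBS library itself was not tested. Without PBS, Jun was lower in fusion than in anti-PD1 (8.17-fold), as was Phf2 (9.005-fold, 4 UMIs in fusion), Penk had 0 UMIs in fusion and 27.5 CPM in combination, Igkc had 0 UMIs in fusion and 31.9 CPM in combination, and Areg and Sv2c were lower in IL15 superagonist than in anti-PD1 (6.87-fold and 6.98-fold).

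Genes close to the IL-15 receptor varied less than the granzymes. Il2rb had 605 CPM in fusion, 461 in combination, 469 in IL15 superagonist, 376 in anti-PD1 and 289 in PBS. Cish, a feedback inhibitor induced by STAT5, had 168 CPM in fusion, 79.1 in combination, 54.7 in IL15 superagonist, 72.4 in anti-PD1 and 57.9 in PBS. The survival gene Bcl2 had 229, 131, 134, 208 and 203 CPM in the same order, lower in combination and IL15 superagonist than in the other 3. Ly6c2, which memory CD8 T cells express, had 951, 1371, 1158, 800 and 752 CPM. Of the genes of IL-2 or IL-15 signalling through STAT5, 3 of 15 were at least 2-fold higher and 4 lower in fusion than in PBS (median log2 0.15), and 2 of 16 were higher and 3 lower in IL15 superagonist than in PBS (-0.06). Over all genes compared, 22.4% were higher and 8.46% lower in fusion (median log2 0.26), and 13.5% higher and 4.93% lower in IL15 superagonist (0.08). The list thus showed no excess of higher genes over all genes in either library.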

How the data were processed

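The authors deposited 1 gene-by-barcode matrix of raw UMI counts per library, made with Cell Ranger 2.1.1 on mm10 per the submitters' processing notes; other steps were not given in the sources used here. Barcodes were gated as described and counts summed per library and population. Summed counts were fitted in R 4.3.3 with edgeR 4.0.16 (TMM factors, filterByExpr, library and population as terms, quasi-likelihood test, Benjamini-Hochberg threshold 0.05); the library is a block because both populations come from the same library, and fits were tested on simulated data. DESeq2 1.42.0 was an alternative. Treatment ratios used summed counts, with a count of 0 set to 3. Python used numpy 2.4.6, scipy 1.17.1 and pandas 2.3.3. Gene positions are from a GENCODE annotation of GRCm38.

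Named genes were the 12 higher and 12 lower ones with the largest difference among those below the threshold, in 1 direction in all libraries and at 30 CPM or more in the higher population, and for treatments the 5 per direction whose interval lay farthest from 1. Of these, 1 gene is not reported here. Gate genes, receptor segments, mitochondrial, ribosomal and unnamed genes were left out, and Pdcd1 in its own comparison. A fixed set of T-cell genes and examples from 17 gene lists are named besides. The members and lists were chosen with earlier results of these data known.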

Additional observations from a re-analysis of the deposited data

Results flagged for a closer look

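Among the 48 named genes whose within-library differences were compared over 5 libraries, 1 had a library far from the others. The Spp1 difference between Pdcd1-positive and Pdcd1-negative stem-like cells was 6.46 on the log2 scale in the anti-PD1 library, against 1.80 to 3.13 in the other 4. In that library 447 of 487 Spp1 UMIs of stem-like cells lay in 1 barcode, and 92.6% lay in barcodes with markers of another lineage. Chance alone sets about 1 in 20 groups apart in this way.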

How the results depend on the processing

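The stem-like share of gated CD8 T cells moved with the cutoff and the depth, given here in the order fusion, combination, IL15 superagonist, anti-PD1 and PBS. A sum of at least 3 gave 4.45%, 19.2%, 28.2%, 12.5% and 6.16%, Tcf7 and Lef1 without S1pr1 gave 7.59%, 21.1%, 30.7%, 15.7% and 7.24%, and 2000 UMIs per cell gave 2.44%, 13.2%, 20.6%, 7.15% and 4.41%. As shares of all cells these were 0.785%, 5.51%, 6.27%, 1.25% and 0.673% for a sum of at least 3, 1.34%, 6.04%, 6.82%, 1.56% and 0.791% for Tcf7 and Lef1, and 0.682%, 3.80%, 4.33%, 0.768% and 0.471% at 2000 UMIs. IL15 superagonist stayed highest in each. Without the library as a block, the pairing of populations within a library was lost and 233 genes were higher and 138 lower in stem-like cells, and 105 higher and 87 lower in Pdcd1-positive cells. Of the named genes, 5 (Ccl3, Ccl4, Penk, Cdkn2a, Prr5l) and 2 (Klra7, Jun) no longer passed without that block. Leaving out 1 library at a time gave 461 to 1037 higher and 356 to 903 lower genes in stem-like cells, 169 to 396 and 177 to 383 in Pdcd1-positive cells, and a Trbv difference of 4.45 to 6.63, or 4.58 to 7.09 with at least 2 UMIs of the leading segment. At 2000 UMIs the counts were 542 higher in stem-like cells, and 70 higher and 92 lower in Pdcd1-positive cells, where 3 named genes had a value and Tnfrsf9 no longer passed. DESeq2 called 211 higher and 226 lower in Pdcd1-positive cells. With a minimum of 10 UMIs, the treatment counts were 1388 higher and 973 lower for fusion against PBS, 846 lower for combination against PBS, 821 lower for IL15 superagonist against PBS, 899 and 442 for anti-PD1 against PBS, 614 and 827 for fusion against combination, 595 and 778 for fusion against anti-PD1, and 612 and 717 for IL15 superagonist against anti-PD1. At 2000 UMIs they were 159 and 50, 495 and 202, 415 and 149, 46 and 19, 154 and 284, 97 and 39, and, lower alone for the last, 84, in the same order. Leaving out other-lineage barcodes gave 198 lower for IL15 superagonist against anti-PD1 and turned 7 named ratios. With 0 Hspa1a UMIs left in PBS, set to 3, its ratios over PBS became at least 4.14 for anti-PD1 and at least 1.40 for combination. The other 5 ratios had counting intervals that include 1: Hspa1b 1.28 (0.243 to 12.6) and Gadd45g 5.47 (0.842 to 230.5) for anti-PD1 over PBS, Gadd45g 2.95 (0.501 to 119) and Cst3 1.03 (0.698 to 1.58) for combination over PBS, and Arg1 1.01 (0.100 to 49.95) for IL15 superagonist over anti-PD1. So had the 2 that turned at 2000 UMIs, Cst3 at 1.13 (0.461 to 3.58) and H2-Eb1 (IL15 superagonist over anti-PD1) at 1.55 (0.208 to 68.8). The cause was not tested for any of these. All other named genes of the population comparisons that had a value kept their direction and their side of the threshold under each alternative run. TMM scaling moved none of 70 treatment ratios past its interval. The other 2 alternatives moved many in size, besides those that turned. Without other-lineage barcodes 22 treatment ratios moved and 28 stayed the same, and at 2000 UMIs 23 moved and 11 stayed the same. With 1 library per treatment and 71 PBS stem-like cells, low-count genes there rest on 1 to 3 UMIs. Genes with related family members (Klra, Ifitm, Mt1 and Mt2, Ccl3 and Ccl4) may share some reads.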
